A study of Mus musculus with 12 samples.

Results

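The genes described here are 10 members of the protease system of the outer epidermis: 6 kallikrein-related peptidases (*Klk5*, *Klk6*, *Klk7*, *Klk8*, *Klk10* and *Klk11*), their inhibitor *Spink5*, and the filaggrin-processing proteases *Casp14*, *Asprv1* and *St14*. They were chosen by symbol alone, and all 10 were among the 21247 genes of the count table and among the 20454 that had enough counts to be tested. No measured value entered the choice of members, although earlier results of these data were known when it was made.

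Corneocytes, the dead cells at the skin surface, are held together by corneodesmosomes. KLK5 and KLK7 are secreted serine proteases that cut the proteins of these junctions, corneodesmosin, desmoglein 1 and desmocollin 1, so that the cells are shed. LEKTI, the product of *SPINK5*, inhibits several kallikreins, and its loss causes Netherton syndrome, a disorder of barrier failure and allergy. Filaggrin is made as the precursor profilaggrin. Matriptase (*St14*), acting with prostasin, and the aspartic protease SASPase (*Asprv1*) take part in processing the precursor, and caspase-14 (*Casp14*) takes part in the later breakdown of filaggrin to the amino acids that hold water in the stratum corneum.

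RNA-seq was performed on periocular skin of 6-week-old BALB/c mice, with 4 libraries for each of the labels ft/ft and ft/ftMyD88-/-. By their labels both genotypes are filaggrin-deficient (ft/ft) and differ in *Myd88*, which encodes the adaptor of toll-like and IL-1 family receptors. Per the study's methods, the flaky tail (*ft*) loss-of-function allele of *Flg* was freed of the linked *ma* allele. The study describes the *Myd88* knockout as global. Other differences between the groups are given with the checks of the labels. The question the comparison addresses is what the loss of *Myd88* changes in filaggrin-deficient skin, here for the proteases that process filaggrin and shed corneocytes. The ft/ftMyD88-/- mice were an in-house cross, and the 4 WT libraries were not analysed here. The number of libraries is that of the mice given for each genotype, although the labels name no animals, and p-values measure the spread between these libraries.

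Some checks of the labels bear on every result below. Total counts were 18941705 to 29255129 in ft/ft and 15802957 to 27037997 in ft/ftMyD88-/-. *Myd88* reads did not fall with the ft/ftMyD88-/- label: the gene stood at 30.7 ± 4.74 CPM (SD, n = 4) in ft/ft and at 41.2 ± 7.29 CPM in ft/ftMyD88-/- (log2 fold change 0.42, edgeR adjusted p = 0.0484). That call was lost without ft/ft replicate 1, 3 or 4 or ft/ftMyD88-/- replicate 1, 2 or 4 (adjusted p = 0.0616 to 0.136) and in limma voom (0.0705), and a count per gene cannot separate a deleted part from the rest. *Xist*, the RNA that silences an X chromosome in females, was seen once over the ft/ft libraries (1 count) and at 49.4 ± 13.3 CPM in ft/ftMyD88-/-, whereas the Y-linked *Ddx3y* had 65.0 ± 8.97 CPM in ft/ft and 0.147 ± 0.225 CPM in ft/ftMyD88-/-. Sex-linked transcripts therefore separated the groups without overlap, although the mice are described as female, so that in each result below an effect of genotype and one of sex cannot be told apart. Of the measures that bear on an exchange of libraries, *Myd88* did not fall with the label. In contrast, *S100a8* and *S100a9*, genes of inflamed skin, were higher in every ft/ftMyD88-/- library than in any ft/ft library. The fall of 6 of 10 sebocyte genes cannot bear on an exchange. The study's own report of lower sebaceous gland pathways came from RNA-seq under these same labels. *Tmem79*, the gene altered in *ma* mice, stood at 59.2 ± 2.92 CPM in ft/ft and 16.4 ± 2.10 CPM in ft/ftMyD88-/- (log2 fold change -1.85, edgeR adjusted p = 5.08e-07), a further difference between the groups that cannot be told apart from that in *Myd88*.

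The 6 kallikrein members lay side by side on the forward strand of chromosome 7, within 76.6 kb (GRCm38, GENCODE M21). From the lowest coordinate upwards they were *Klk11* (chr7:43774604-43779263), *Klk10* (chr7:43781035-43785410), *Klk8* (chr7:43797577-43803826), *Klk7* (chr7:43811294-43816359), *Klk6* (chr7:43824499-43832030) and *Klk5* (chr7:43841971-43851181). *Klk9*, which is not a member, lay between *Klk10* and *Klk8*. The other members were elsewhere: *Casp14* on chr10:78711991-78718294 (reverse strand), *Asprv1*, a gene of 1 exon, on chr6:86628164-86629710 (forward strand), *St14* on chr9:31089402-31131853 (reverse strand) and *Spink5* on chromosome 18. *Klk8* shares 382 exon bases with the antisense transcript *2310002F09Rik*, and the library kit named in the study's methods does not mark strand, so reads over those bases may belong to either.

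**Figure D1:**
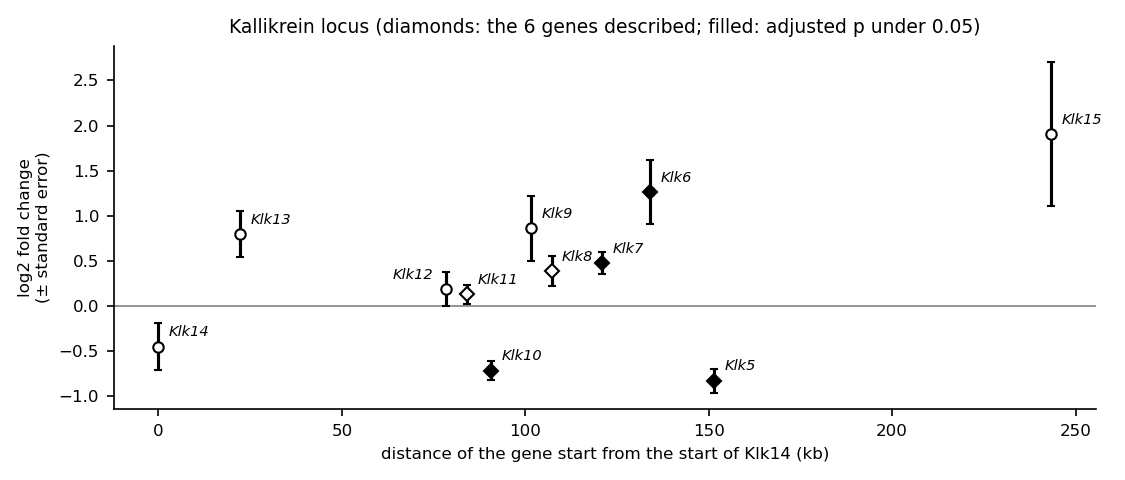
Kallikrein genes of the chromosome 7 cluster by distance of their starts from that of *Klk14* in kb, each with its log2 fold change (ft/ftMyD88-/- over ft/ft, TMM scaling) and standard error, with diamonds for the 6 members and filled points for an adjusted p under 0.05. *Klk10* (-0.72) and *Klk5* (-0.83) lie below 0 on either side of *Klk7* (0.47) and *Klk6* (1.26), which lie above it.

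The direction of change was not shared across the cluster. *Klk5* and *Klk10* fell while *Klk6* and *Klk7*, which lie between them, rose. The sequences before RefSeq starts of *Klk10* and *Klk5*, which fell, and of *Klk6*, which rose most, are printed so that oppositely moving neighbours can be compared. They are the exon-free part of the 250 bases before each RefSeq start (GRCm38.p6, forward strand, 5′ to 3′): chr7:43780804-43781034 for *Klk10*, chr7:43842068-43842268 for *Klk5*, and chr7:43824294-43824498 and chr7:43825200-43825394 for 2 starts of *Klk6*. The RefSeq start of *Klk5* and the second start of *Klk6* lie downstream of the GENCODE gene starts given above, so these 2 stretches are intronic in the GENCODE genes. Capitals mark a match to a searched motif.
Klk10: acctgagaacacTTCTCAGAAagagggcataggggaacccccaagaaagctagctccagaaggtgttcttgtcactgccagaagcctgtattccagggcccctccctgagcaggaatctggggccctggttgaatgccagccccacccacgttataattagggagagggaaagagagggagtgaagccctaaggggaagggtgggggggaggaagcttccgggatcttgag
Klk5: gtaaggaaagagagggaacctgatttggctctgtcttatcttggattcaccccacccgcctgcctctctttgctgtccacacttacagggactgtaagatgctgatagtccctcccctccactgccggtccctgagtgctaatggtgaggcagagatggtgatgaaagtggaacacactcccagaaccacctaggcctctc
Klk6 start 1: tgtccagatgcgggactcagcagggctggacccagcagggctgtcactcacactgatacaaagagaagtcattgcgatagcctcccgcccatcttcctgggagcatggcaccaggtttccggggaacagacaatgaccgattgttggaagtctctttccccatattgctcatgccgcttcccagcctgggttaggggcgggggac
Klk6 start 2: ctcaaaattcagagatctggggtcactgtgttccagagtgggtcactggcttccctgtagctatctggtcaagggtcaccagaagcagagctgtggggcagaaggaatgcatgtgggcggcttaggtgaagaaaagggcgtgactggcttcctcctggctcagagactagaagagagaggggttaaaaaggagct

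The 250-base windows were searched on both strands for TGANTCA (AP-1), TTGCNNAA (C/EBP), AACCNGTT (grainyhead) and TTCNNNGAA (STAT). RefSeq gave a start for 8 of the 10 members, with 10 windows in all, and *Spink5* and *St14* were not among them. A match was found in 3 of the 10 windows. *Klk10* held TTCTCAGAA, which fits the STAT letters, 238 bases before its start, and both windows of *Klk11* held the C/EBP letters. Among 32851 RefSeq promoters of the same length, 7.02% held the STAT letters, 9.56% the C/EBP letters, 6.75% the AP-1 letters and 1.79% the grainyhead letters. The windows of *Klk5* and *Klk6* held none of the 4 motifs, which says only that these letters are not in these windows.

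Of the 10 members, 3 were higher in ft/ftMyD88-/- than in ft/ft (*Klk6*, *Klk7* and *Casp14*), 4 were lower (*Spink5*, *Klk5*, *Klk10* and *Asprv1*), and 3 did not pass the test (*Klk8*, *Klk11* and *St14*). A call is an adjusted p under 0.05 in the quasi-likelihood test of edgeR, adjusted by Benjamini-Hochberg over all tested genes. The members' counts were 5 higher and 3 lower with library size only, where 22.7% of all genes were called higher and 6.48% lower. They were 6 higher and 0 lower when scaled to keratinocyte genes, where 60.0% of all genes were called higher and 1.90% lower, so that the members' share there was that of all genes. Without ft/ft replicate 3 they were 0 higher and 4 lower, where 7.93% of all genes were called higher and 9.72% lower. Without ft/ft replicate 4 they were also 0 higher and 4 lower, against 7.24% and 9.31% of all genes. Without ft/ft replicate 1 they were 1 higher and 3 lower (all genes 9.27% and 11%). Without ft/ftMyD88-/- replicate 1 they were 1 higher and 4 lower (all genes 10.1% and 10.7%). With TMM and all 8 libraries, 23.3% of all tested genes were called, 10.9% as higher and 12.3% as lower. The median log2 fold change of the members was 0.08 and that of all tested genes 0.01. The 4 libraries of each group did not overlap for *Klk7* and *Casp14*, which were higher, and for *Klk5*, *Klk10* and *Spink5*, which were lower. Over all tested genes 26.7% did not overlap, 12.5% being higher and 14.2% lower. Levels are given as CPM, counts scaled to a common library size after TMM adjustment. In bulk skin, fewer cells of a type and less RNA per cell cannot be told apart.

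**Figure D2:**
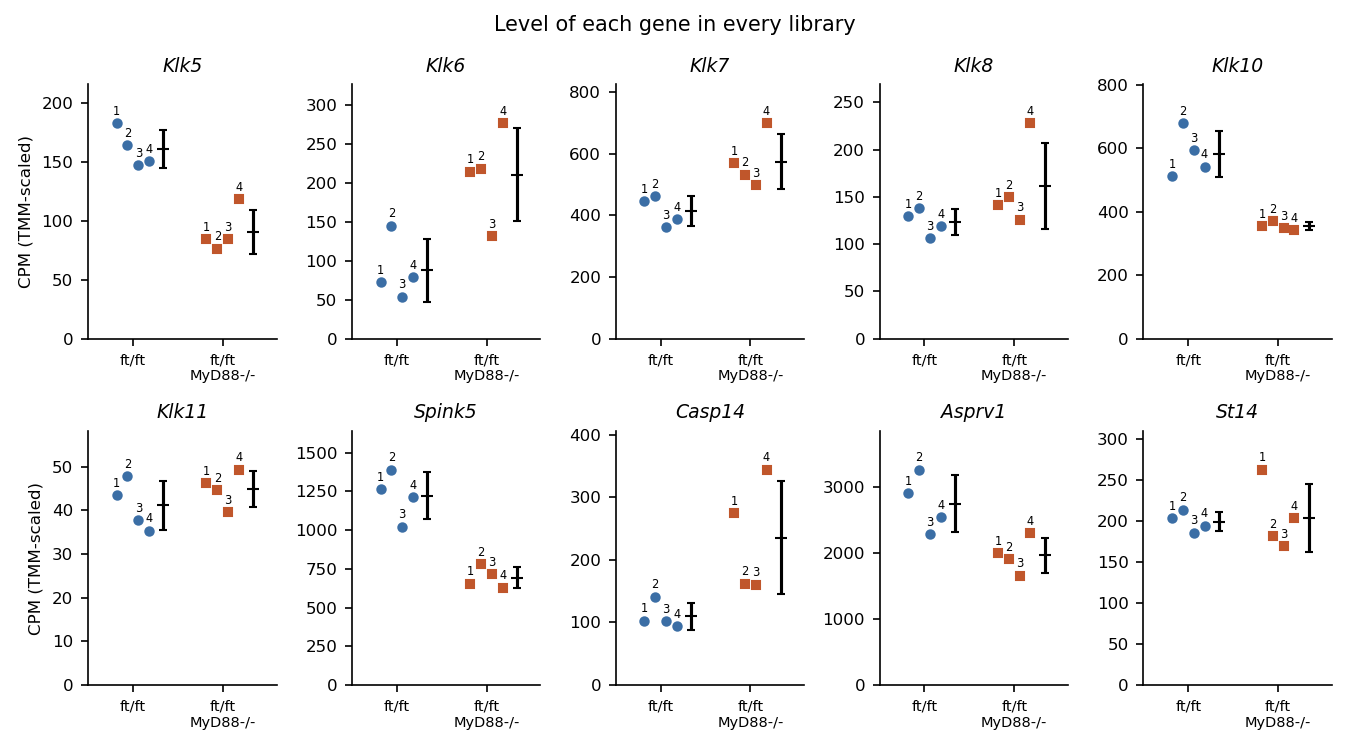
CPM of each member in each library (linear axis from 0, points numbered by replicate), with ft/ft and ft/ftMyD88-/- side by side and the mean ± SD beside each group. *Spink5*, *Klk5* and *Klk10* are lower in all 4 ft/ftMyD88-/- libraries than in any ft/ft library, *Klk7* and *Casp14* are higher in all 4, and the groups of the other members overlap.

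*Spink5*, the inhibitor, fell by 0.82 on the log2 scale (SE 0.115, edgeR adjusted p = 5.72e-04), which is 1.76-fold lower. It measured 1262, 1389, 1022 and 1214 CPM in ft/ft replicates 1 to 4, and 653, 778, 713 and 628 CPM in ft/ftMyD88-/-. The groups were well apart, since the lowest ft/ft library stood above the highest ft/ftMyD88-/- library. The means were 1222 ± 152 CPM and 693 ± 66.7 CPM (SD, n = 4 each; exact permutation test of log2 CPM, two-sided p = 0.0286, the lowest possible with 4 against 4 libraries).

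*Klk5*, the trypsin-like kallikrein that activates other members of the family, fell by 0.83 (log2, SE 0.132, edgeR adjusted p = 0.00116), or 1.78-fold. It measured 182, 164, 147 and 150.5 CPM in ft/ft, and 84.3, 76.1, 84.0 and 118 CPM in ft/ftMyD88-/-. Replicate 4 was the highest of the ft/ftMyD88-/- libraries and was still below every ft/ft library. *Klk10* fell by 0.72 (log2, SE 0.101, edgeR adjusted p = 5.72e-04), or 1.64-fold. Its levels were 513, 679, 595 and 542 CPM in ft/ft, against 355, 371, 349 and 341 CPM in ft/ftMyD88-/-. The ft/ftMyD88-/- libraries lay close together, with a coefficient of variation of 3.48%. For *Spink5*, *Klk5* and *Klk10*, each library was left out in turn without losing the call. Scaling to keratinocyte genes ended each of these calls, at log2 fold changes of -0.20, -0.21 and -0.093.

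*Klk7*, the chymotrypsin-like kallikrein, rose by 0.47 (log2, SE 0.123, edgeR adjusted p = 0.0163), or 1.39-fold. It measured 446, 463, 362 and 388 CPM in ft/ft and 569.8, 533, 498 and 699.9 CPM in ft/ftMyD88-/-. The groups did not overlap, but the highest ft/ft and the lowest ft/ftMyD88-/- library were close. The call was lost without ft/ft replicate 3 or without ft/ft replicate 4 (adjusted p = 0.0549 for each).

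*Klk6*, another trypsin-like kallikrein, rose by 1.26 (log2, SE 0.357, edgeR adjusted p = 0.0431), or 2.40-fold, the largest difference among the members. Its levels were 72.0, 145, 53.7 and 78.8 CPM in ft/ft, and 215, 218, 131 and 277 CPM in ft/ftMyD88-/-. The groups overlapped, with replicate 2 of ft/ft above replicate 3 of ft/ftMyD88-/-. These were also the most variable ft/ft values of any member (coefficient of variation 45.7%), and the exact permutation test of the log2 CPM gave a two-sided p of 0.0571. Replicate 2 of ft/ft also had the highest *S100a8* and *S100a9* of its group, at 88.4 and 134 CPM, and the highest summed level of 8 hyperproliferative keratinocyte genes, 3875 CPM against 2801 to 3099 CPM in the others. Both *S100* genes are made by neutrophils and by stressed keratinocytes, and their part was not tested. The edgeR call was kept without either overlapping library. It was lost without ft/ft replicate 1 (adjusted p = 0.103), 3 (0.0697) or 4 (0.103), and without ft/ftMyD88-/- replicate 1 (0.0906), 2 (0.0856) or 4 (0.0999).

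*Klk8* and *Klk11* did not pass the test. *Klk8*, known in epidermis and brain, measured 123 ± 13.6 CPM in ft/ft and 161 ± 45.6 CPM in ft/ftMyD88-/- (SD, n = 4; log2 fold change 0.39, unadjusted 95% interval 0.06 to 0.72, edgeR adjusted p = 0.123). The ft/ftMyD88-/- libraries were at 141, 149, 126 and 228 CPM, so that replicate 4 stood above the others. Without ft/ftMyD88-/- replicate 3 the difference was called (adjusted p = 0.0420). *Klk11* was the least abundant kallikrein member at 41.2 ± 5.63 CPM in ft/ft and 45.0 ± 4.05 CPM in ft/ftMyD88-/- (log2 fold change 0.13, 95% interval -0.09 to 0.34, edgeR adjusted p = 0.440).

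*Casp14* rose by 1.10 (log2, SE 0.272, edgeR adjusted p = 0.0225), or 2.14-fold. It measured 103, 141, 102 and 93.4 CPM in ft/ft and 275, 162, 160.4 and 344 CPM in ft/ftMyD88-/-. All 4 ft/ftMyD88-/- libraries were above ft/ft, and replicates 1 and 4 were far above replicates 2 and 3. The same 2 libraries held the highest summed level of 11 anagen hair follicle genes, 16869 and 9057 CPM, against 2471 and 3809 CPM in replicates 2 and 3 and 1920 to 2783 CPM in ft/ft. With replicates 1 and 4 left out, an alternative chosen after the data were seen that also removes the highest *Casp14* values, *Casp14* was still called at a log2 fold change of 0.56 (adjusted p = 0.0316). *Klk6* (1.01, adjusted p = 0.225) and *Klk7* (0.32, adjusted p = 0.101) were not, and over all genes 1221 were called higher and 1402 lower with these 6 libraries. The part of hair follicle RNA in these differences was not tested. Leaving out single libraries ended the *Casp14* call for ft/ft replicate 1 (adjusted p = 0.0645), 3 (0.0604) or 4 (0.0603) and for ft/ftMyD88-/- replicate 1 (0.0615). The replicate number as a block also ended it (1.04, adjusted p = 0.0842).

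*Asprv1* fell by 0.48 (log2, SE 0.137, edgeR adjusted p = 0.0235), or 1.40-fold. It measured 2902, 3254, 2280.0 and 2539 CPM in ft/ft, and 1994, 1904, 1650.5 and 2296 CPM in ft/ftMyD88-/-. Only replicate 4 of ft/ftMyD88-/- reached into the range of ft/ft, just above its replicate 3. The call was lost without ft/ft replicate 1 (adjusted p = 0.0542) or 2 (0.0696), and without ft/ftMyD88-/- replicate 2 (0.0555) or 3 (0.0594). With library size only *Asprv1* was not called either (-0.31, adjusted p = 0.0866), and scaled to keratinocyte genes it turned to 0.14. *St14*, a protease anchored in the membrane, was at 199 ± 12.1 CPM in ft/ft and 204 ± 41.4 CPM in ft/ftMyD88-/- (SD, n = 4; log2 fold change 0.03, 95% interval -0.21 to 0.28, edgeR adjusted p = 0.876). *St14* libraries labelled ft/ftMyD88-/- were at 263, 181, 169 and 203 CPM, with replicate 1 the highest, and without that library the log2 fold change was -0.11 (adjusted p = 0.474).

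**Figure D3:**
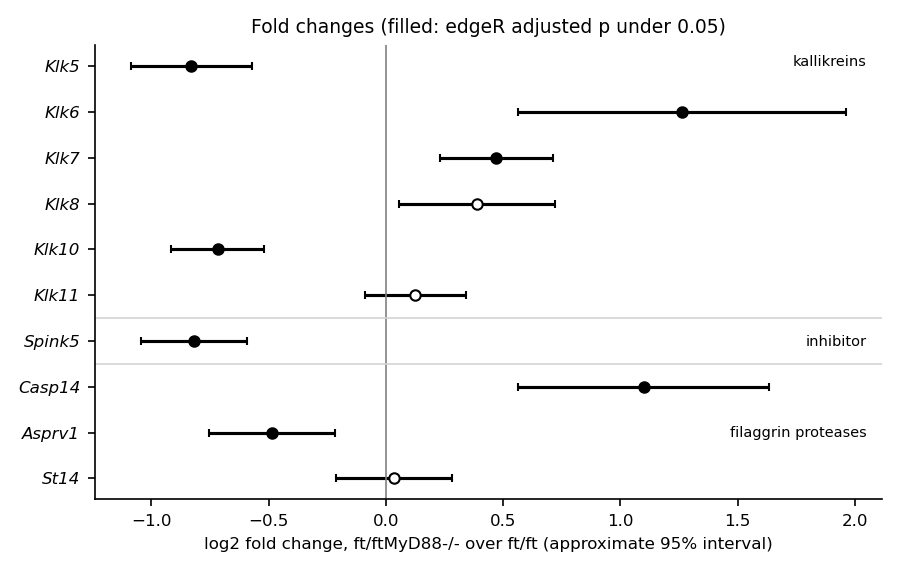
Log2 fold change (ft/ftMyD88-/- over ft/ft, TMM scaling) of each member with its approximate 95% interval, filled where edgeR's adjusted p is under 0.05. *Klk5*, *Klk10*, *Spink5* and *Asprv1* lie below 0 and *Klk6*, *Klk7* and *Casp14* above it, while scaling to keratinocyte genes, not drawn, places *Asprv1* at 0.14.

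Levels of different genes were compared per length, which holds only if counts scale with length. The labels name another protocol than the study's methods, and which applied was not tested, so these ranks hold only under that condition. By CPM alone the order in ft/ft differed, with *Spink5* (1222) above *Klk10* (582) and *St14* (199) above *Klk5* (161). As CPM per kb of merged exons, *Asprv1* was the highest member in both groups, at 1773.5 in ft/ft and 1268 in ft/ftMyD88-/-. In ft/ft it was followed by *Klk10* (424), *Spink5* (255), *Klk7* (219) and *Klk5* (120.4), where the libraries of *Spink5* and *Klk7* overlapped and the other neighbours did not. *Klk8* (79.9), *Klk6* (57.8) and *Casp14* (45.8) came next, each overlapping its neighbour, and *Klk11* (28.1) and *St14* (26.1) came last and overlapped as well. In ft/ftMyD88-/- the order was *Klk7* (304) and *Klk10* (258), overlapping each other, and then *Spink5* (145), *Klk6* (139), *Klk8* (105), *Casp14* (98.3) and *Klk5* (67.8), in which every neighbour overlapped the next. Per kb, *Klk7* thus moved from rank 4 to rank 2 and *Klk5* from rank 5 to rank 8. Together the members took 0.463% to 0.624% of all counts in ft/ft and 0.426% to 0.538% in ft/ftMyD88-/-.

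Reads of each protease were also set against reads of *Spink5* in the same library, a ratio that does not depend on how libraries are scaled and was not tested. *Klk7* reads amounted to 32.0% to 35.4% of *Spink5* reads in ft/ft and to 68.5% to 111% in ft/ftMyD88-/-. The 6 kallikreins summed came to 108% to 127% of *Spink5* reads in ft/ft and 172% to 273% in ft/ftMyD88-/-, 1.79-fold more on average. Their summed level itself overlapped between the groups, at 1302 to 1637 CPM in ft/ft and 1228 to 1713 CPM in ft/ftMyD88-/-. The ratios of *Klk6*, *Klk8*, *Klk11*, *Casp14* and *St14* to *Spink5* were likewise higher in every ft/ftMyD88-/- library than in any ft/ft library. The ratios of the members that fell along with *Spink5* overlapped between the groups. For *Klk5* the range was 11.8% to 14.5% in ft/ft and 9.79% to 18.8% in ft/ftMyD88-/-, for *Klk10* 40.6% to 58.2% and 47.6% to 54.4%, and for *Asprv1* 209% to 234% and 231% to 365%. The mean log2 ratio to *Spink5* differed between the groups by -0.030 for *Klk5* and 0.10 for *Klk10*, and by 1.28 for *Klk7* and 2.13 for *Klk6*. The fall of *Spink5* itself is part of every one of these ratios, so a gene that hardly changed can separate too. *St14* and *Klk11*, with log2 fold changes of 0.03 and 0.13, differed in their mean log2 ratio by 0.83 and 0.95. The share of all tested genes whose ratio to *Spink5* separates the groups was not computed. These separations are therefore not particular to the members.

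**Figure D4:**
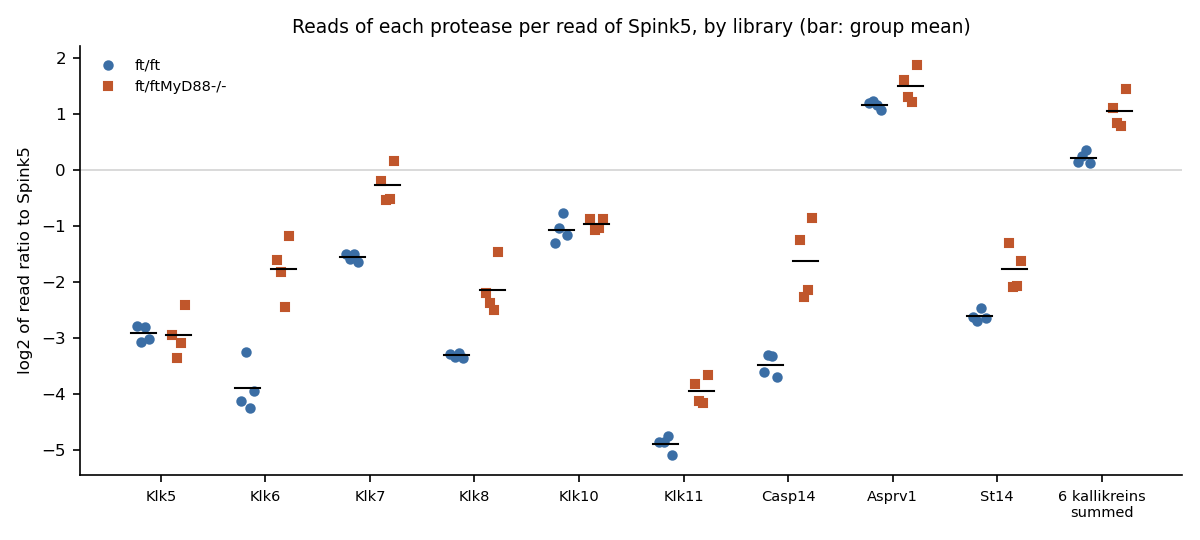
Log2 ratio of the reads of each member, and of the 6 kallikreins summed, to *Spink5* reads of the same library, not corrected for gene length, with each point a library and the bar the group mean. The points of *Klk6*, *Klk7*, *Klk8*, *Klk11*, *Casp14* and *St14* are separate between the groups, and those of *Klk5*, *Klk10* and *Asprv1* overlap. The fall of *Spink5* enters every ratio, and the share of all genes that separate in this way was not computed.

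Keratinocyte genes were among those that fell. Of 9 differentiated keratinocyte genes 4 fell (median log2 fold change -0.50), and their summed level was 21361.6 to 27031.4 CPM in ft/ft and 14153.1 to 17660.7 CPM in ft/ftMyD88-/-. Of 7 basal keratinocyte genes 5 fell (median -0.59), with sums of 14024.8 to 17175.7 CPM and 9837.72 to 12058.8 CPM, while *Krt14* had a log2 fold change of 0.05. When libraries were scaled to keratinocyte genes instead, which moved the median log2 fold change of all genes from 0.01 to 0.63, no member was called lower. *Spink5* was then at -0.20 (adjusted p = 0.154), *Klk5* at -0.21 (0.195) and *Klk10* at -0.093 (0.461), and *Asprv1* turned to 0.14 (0.374). On that scale *Klk8* (1.01), *Klk11* (0.75) and *St14* (0.66) were called higher, as were *Klk6*, *Klk7* and *Casp14*. The order of the members relative to each other is the same on both scales. The skeletal muscle list (7 of 8 fell) and the sebocyte list (6 of 10 fell) were also lower, at sums of 8562 to 11631 and 3283 to 6302 CPM for muscle and of 20043 to 23047 and 12096 to 17830 CPM for sebocytes. Of 9 conjunctival genes 2 fell (*Krt13* and *Krt8*, list median -0.70, sums of 1525 to 3005 and 1105 to 2109.8 CPM), and of 4 lacrimal gland genes *Aqp5* fell and *Lpo* rose (sums of 117 to 207 and 91.5 to 405 CPM). Of 11 hair follicle genes 2 rose (list median 1.85). Of 8 hyperproliferative keratinocyte genes 1 rose, *Sprr1b*, with a list median of 2.29, 4 genes higher without overlap and sums of 2801 to 3875 and 3688 to 6637 CPM. The neutrophil list summed to 33.4 to 269 CPM in ft/ft and 402 to 960 CPM in ft/ftMyD88-/-, of which *S100a8* (25.8 and 242 CPM on average, adjusted p = 0.126) and *S100a9* (39.2 and 368 CPM, adjusted p = 0.123), shared with the hyperproliferative list, made up most in ft/ftMyD88-/-. Of the list's other genes *Csf3r* rose by 1.42 and *Mpo* fell by 2.80 (log2), *Cxcr2* did not pass (0.28, adjusted p = 0.383) and *Elane* averaged 0.0729 and 0.102 CPM. No gene of these lists was at 0 in all libraries, and their part in the members' differences was not tested.

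Among the inhibitors other than *Spink5*, 9 were tested, of which 3 rose and 3 fell. *Serpina12*, the serpin vaspin, which inhibits KLK7, fell most of these, from 178 ± 34.6 CPM to 55.7 ± 13.2 CPM (SD, n = 4; log2 fold change -1.67, SE 0.182, edgeR adjusted p = 2.41e-04). *Wfdc5* (-0.60, adjusted p = 0.00432) and *Spint2* (-0.36, adjusted p = 0.0148), which inhibits matriptase and prostasin, fell less. Scaled to keratinocyte genes, *Wfdc5* turned to 0.029 and *Spint2* was called in the opposite direction (0.27, adjusted p = 0.0427), and with library size only *Spint2* was not called (-0.18, adjusted p = 0.134). *Spink12* (2.33, adjusted p = 0.00730) and *Spink6* (1.07, adjusted p = 0.0462) rose but stayed under 5 CPM on average in both groups. The *Spink6* call was lost without ft/ft replicate 2 (adjusted p = 0.109), 3 (0.103) or 4 (0.117) and without ft/ftMyD88-/- replicate 3 (0.116) or 4 (0.0949). *Wfdc12* was at 0.140 CPM in ft/ft and 1.14 CPM in ft/ftMyD88-/- (adjusted p = 0.00602).

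Of 9 other enzymes of filaggrin processing and breakdown, 1 rose and 4 fell in edgeR's test, with a list median of 0.28. Those called higher were 2 without ft/ft replicate 2, and 3 without ft/ftMyD88-/- replicate 2 or with library size only. DESeq2 called 4 higher (*Furin*, *Padi1*, *Padi3* and *Padi4*) and 4 lower. *Hal*, histidase, which makes urocanic acid from the histidine that filaggrin releases, fell from 390 ± 41.9 CPM to 192 ± 28.0 CPM (SD, n = 4; log2 fold change -1.03, edgeR adjusted p = 1.73e-04). *Pcsk6*, a proprotein convertase (-0.73, adjusted p = 1.67e-04), *Prss8*, prostasin (-0.58, adjusted p = 0.00606), and *Capn1*, calpain-1 (-0.44, adjusted p = 0.00412), also fell. *Padi4*, a peptidylarginine deiminase, rose by 1.00 (adjusted p = 0.00261). The largest log2 fold changes of the list, those of *Padi3* (2.03, edgeR adjusted p = 0.0765) and *Padi1* (1.84, adjusted p = 0.0818), did not pass. *Padi3* measured 305, 41.3, 63.2 and 157 CPM in ft/ftMyD88-/- replicates 1 to 4 and 27.1 to 42.1 CPM in ft/ft, and *Padi1* 50.8, 8.12, 12.2 and 27.3 CPM against 4.18 to 8.87 CPM. Both were highest in replicates 1 and 4, the libraries with the highest hair follicle sums. Scaled to keratinocyte genes, *Prss8* turned to 0.049 and *Pcsk6* was not called (-0.11, adjusted p = 0.375). *Prss8* differed from its partner *St14*, which had a log2 fold change of 0.03, although the difference between these 2 was not tested.

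A list of 8 genes held members of the filaggrin family, corneodesmosome proteins and *Lor*, loricrin, a cornified envelope protein that is neither. In edgeR's test 4 of the 8 fell and 4 did not pass. Those that fell were *Lor* (-1.51, edgeR adjusted p = 2.30e-05), *Flg2* (-1.25, adjusted p = 0.00431), *Dsg1a* (-1.10, adjusted p = 2.27e-04) and *Cdsn*, corneodesmosin (-0.71, adjusted p = 0.00182). *Flg* itself measured 48.3, 199, 54.2 and 112 CPM in ft/ft and 273, 191, 229.8 and 273 CPM in ft/ftMyD88-/-. The groups overlapped in replicate 2 of each, and the log2 fold change of 1.22 did not pass (edgeR adjusted p = 0.120). It was called higher by DESeq2 (adjusted p = 0.0450) and limma voom (adjusted p = 0.0199), and by edgeR without ft/ft replicate 2 (1.75, adjusted p = 0.0121) or when scaled to keratinocyte genes (1.89, adjusted p = 0.0119).

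No other kallikrein-related peptidase of the cluster passed the test among 5 tested by edgeR, although 3 had an unadjusted p under 0.05, and DESeq2 and limma voom each called 1. Without ft/ft replicate 2 or without ft/ftMyD88-/- replicate 3, edgeR called 2 higher. With filterByExpr or library size only 1 was called higher, and with the replicate number as a block 1 higher and 1 lower. *Klk13* (0.79, edgeR adjusted p = 0.0557) and *Klk9* (0.86, adjusted p = 0.131) had log2 fold changes above 0, and *Klk14* (-0.45, adjusted p = 0.248) one below it. Of 14 glandular kallikreins listed 2 were tested, and *Klk1*, tissue kallikrein, rose (log2 fold change 3.23, edgeR adjusted p = 0.00273) from counts of 0, 5, 1 and 3 to counts of 14, 23, 19 and 28. None of 10 other membrane serine proteases of epithelia was called by edgeR, DESeq2 or limma voom, and 0 had an unadjusted p under 0.05 in edgeR. Their log2 fold changes lay between -0.31 and 0.07, so that *St14* stood within the range of its class. None of 6 genes of the protease-activated receptors and their downstream signals was called by any of the 3 tools, with 2 at an unadjusted p under 0.05 in edgeR. Without ft/ftMyD88-/- replicate 1, and likewise without its replicate 3, edgeR called 1 gene of this list lower. *F2rl1*, the PAR2 receptor that kallikreins can activate, had a log2 fold change of -0.31 (edgeR adjusted p = 0.0594). Of 9 cathepsins and cystatins 1 fell, *Cst3* (-0.43, adjusted p = 0.0174), which turned to 0.19 when scaled to keratinocyte genes. Its call was also lost with library size only (-0.25, adjusted p = 0.109), where 4 genes of the list were called higher and 0 lower, and without ft/ft replicate 3 (adjusted p = 0.0535).

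**Figure D5:**
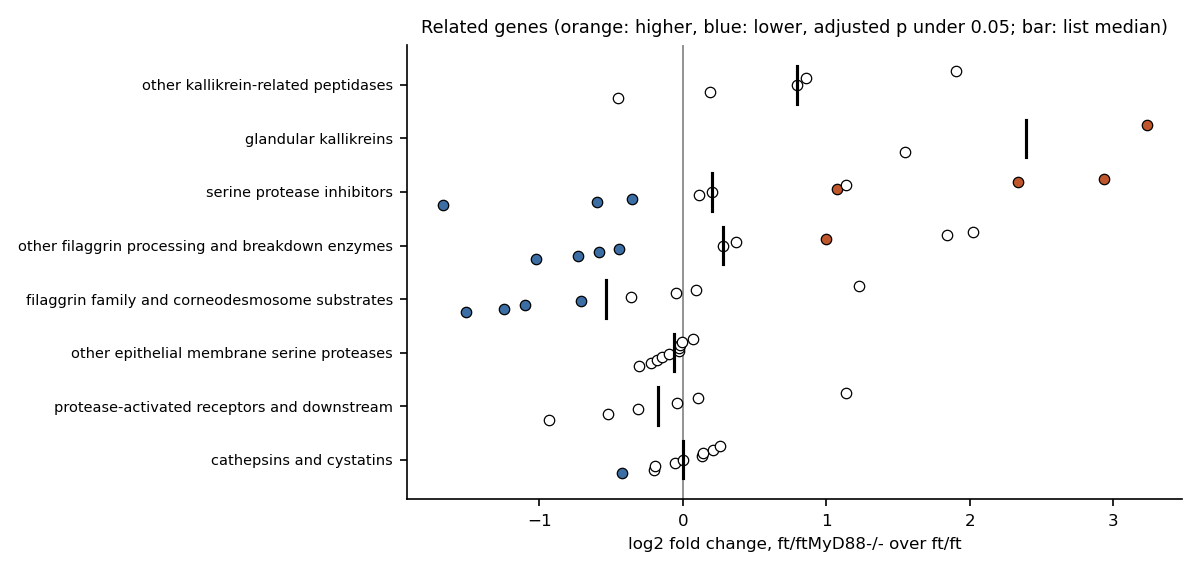
Log2 fold change (ft/ftMyD88-/- over ft/ft, TMM scaling) of each tested gene of the related lists, orange where called higher and blue where called lower (edgeR adjusted p under 0.05), with a bar at each list's median. Inhibitors and filaggrin-processing enzymes lie on both sides of 0, and the 4 called genes of the filaggrin family and corneodesmosome list, *Lor* among them, all lie below it.

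Over the 8 libraries, the members differed in which genes they resembled. The measure was the root mean square difference of log2 CPM after each gene was centred on its mean, over 14672 genes with a mean of at least 1 CPM. Nearest to *Klk5* were *Lce1c* (0.0922) and *Lce1a2* (0.118), genes of the late cornified envelope. *Klk6* was nearest to *Rptn* (0.199), repetin, and *Tdh* (0.239), *Spink5* to *Clca2* (0.0772) and *Adtrp* (0.0842), and *Klk10* to *Abcc4* (0.0714) and *Extl1* (0.0775). *Casp14* was nearest to *Rab37* (0.166) and *Tgm3* (0.182), the latter a transglutaminase of hair and epidermis. Among the members themselves the nearest pairs were *Klk7* with *Klk8* (0.125), *Klk10* with *Spink5* (0.157) and *Klk11* with *St14* (0.170). The nearest genes of *Klk7*, *Klk8*, *Klk11*, *Asprv1* and *St14* lay at 0.0282 to 0.0956. These distances describe 8 libraries that share 1 experiment and were not tested.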

How the data were processed

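Periocular skin of mice was measured by RNA-seq, and 8 libraries (4 ft/ft, 4 ft/ftMyD88-/-) of 12 labelled samples were used. The values are raw counts per gene, deposited by the authors without normalization. Per the study's methods, reads were single-end from polyA-selected TruSeq libraries, aligned with HISAT to GRCm38.p6 and with tophat2, and counted with HTSeq at default settings. The labels of these libraries instead give total RNA, a fixed-tissue protocol and Cell Ranger. Which protocol applied was not tested. The TruSeq kit named does not mark strand, whereas counting by strand is HTSeq's default, so levels of overlapping genes are uncertain.

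Genes with at least 10 summed counts (20454) were fitted with edgeR 4.0.16 in R 4.3.3 (TMM, robust glmQLFit, glmQLFTest, two-sided, Benjamini-Hochberg over all genes). Standard errors came from the log2 fold change and F, and CPM from TMM-scaled library sizes. Libraries held 15802957 to 29255129 counts. A count of 0 allows up to 3 counts, 0.102 to 0.183 CPM, which covers counting error only. Whether the counts are of reads or of molecules depends on the protocol and was not tested. Replicates differed by more than counting noise (chi-square per degree of freedom at least 15.1).

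Named genes are the 10 members, *Myd88*, *Flg*, *Tmem79*, *Xist* and 4 Y-linked genes, up to 3 called increases and 3 decreases of each related list with a mean of at least 1 CPM, and the 2 genes nearest each member. *Klk1*, *Klk9*, *Klk13*, *Klk14*, *F2rl1*, *Furin*, *Padi1*, *Padi3*, *Capn1*, *Cdsn*, *Wfdc12* and the cell markers named in the text were named after their values were seen. Members and lists were chosen with earlier results of these data known. Alternatives were DESeq2 1.42.0, voom of limma 3.58.1, RLE or library-size scaling, scaling to 16 keratinocyte genes, filterByExpr or no filter, a replicate block, each library left out, a log2 fold change of at least 1 and an adjusted p under 0.01.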

Additional observations from a re-analysis of the deposited data

Results flagged for a closer look

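In each of 82 groups of 4 libraries, the highest or lowest library was compared with the other 3, and 5 groups held a library far from the rest, where chance gives about 1 in 20. For *Spint2*, ft/ft replicate 4 measured 352 CPM, below the 412 to 418 CPM of the other ft/ft libraries. For *Xist*, ft/ft replicate 1 measured 0.0429 CPM and the others 0. Replicate 1 of ft/ftMyD88-/- was above the other libraries of its group for *Ddx3y* (0.482 CPM), *Eif2s3y* (0.438 CPM) and *Kdm5d* (0.263 CPM). For *Xist* and *Eif2s3y* the other libraries were at 0, so any count would be flagged and the rate of 1 in 20 does not apply. For *Ddx3y* and *Kdm5d* the others reached only 0.0735 and 0.0340 CPM. No member was among the 5.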

How the results depend on the processing

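*Spink5*, *Klk5* and *Klk10* kept their call under every setting run except scaling to keratinocyte genes and a log2 fold change of at least 1. With library size only, *Klk8* (0.56) and *Klk11* (0.30) became called and *Asprv1* (-0.31), *Spint2* (-0.18) and *Cst3* (-0.25) lost their calls, members called higher were 5, related genes called higher 12, and genes called 4638 higher and 1326 lower. Scaled to keratinocyte genes, *Klk5* (-0.21), *Klk10* (-0.093) and *Spink5* (-0.20) lost their calls, *Klk8* (1.01), *Klk11* (0.75) and *St14* (0.66) gained one, *Asprv1* (0.14) changed direction, and members called were 6 higher and 0 lower. *Wfdc5* (0.029), *Spint2* (0.27), *Prss8* (0.049) and *Cst3* (0.19) also changed direction there. At a log2 fold change of at least 1, *Klk5* (-0.83), *Klk7* (0.47), *Klk10* (-0.72), *Spink5* (-0.82) and *Asprv1* (-0.48) were not called, leaving 0 members lower, 5 related genes lower, and 752 genes higher and 520 lower. At an adjusted p under 0.01, *Klk6* (1.26), *Klk7* (0.47), *Casp14* (1.10) and *Asprv1* (-0.48) were not called, leaving 0 members higher, and 951 genes higher and 1350 lower. Related genes called higher were 5 in edgeR, 10 in DESeq2 and 8 in limma voom. Leaving out both hair follicle-rich ft/ftMyD88-/- libraries, chosen after the data were seen, gave *Klk6* 1.01 and *Klk7* 0.32, neither called, 1 member higher, and 1221 genes higher and 1402 lower.

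Without single libraries, log2 fold changes ranged from 1.09 to 1.62 for *Klk6*, 0.37 to 0.55 for *Klk7*, 0.18 to 0.50 for *Klk8*, 0.06 to 0.21 for *Klk11*, 0.87 to 1.26 for *Casp14*, -0.56 to -0.39 for *Asprv1* and -0.11 to 0.13 for *St14*. Counts called higher ranged from 0 to 4 for members, 4 to 8 for related genes and 1464 to 2260 for all genes. Same-numbered libraries did not deviate together (correlations -0.311 to 0.0645), so no pairing by number was seen, although so few libraries cannot exclude one. With the replicate number as a block, *Casp14* (1.04, adjusted p = 0.0842) lost its call and no other member changed side. The causes of these changes were not tested. Depth limits genes of few counts such as *Klk1*, with 0 to 5 counts in ft/ft.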
